A study of Mus musculus with 5 samples.

Results

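The smooth muscle contractile genes are 10 mouse genes, taken by symbol from a table of 52143 genes: Acta2, Actg2, Myh11, Tagln, Des, Cnn1, Myl9, Lmod1, Synpo2 and Smtn. Each symbol had 1 entry, and all 10 were annotated as protein-coding. They were measured by RNA-Seq in samples labelled Colon, from tumors by the design text, of 2 Control mice (replicates 1 and 4) and 3 SIGLEC12 mice (replicates 2, 3 and 4), to ask how epithelial expression of human Siglec-XII, a lectin of the Siglec family, bears on colon tumors. Control mice carried Villin1-Cre-ERT alone. SIGLEC12 mice, their littermates, carried in addition 1 conditional allele of human SIGLEC12 placed in the ROSA26 locus behind a floxed EGFP stop cassette. The Villin1 promoter drives the recombinase in intestinal epithelium, so the transgene was directed to epithelium and not to muscle. All mice were females treated from 8 weeks of age with tamoxifen for 5 days, then with the carcinogen azoxymethane (AOM, 10 mg/kg) and with 4 cycles of dextran sulfate sodium (DSS, 2.0% for 5 days, 14 days of recovery), which injures the colon lining. Tumors were taken on day 87. Each sample is read here as 1 mouse, and p-values measure the spread between these samples. The SIGLEC12 transgene itself was not analysed here.

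Smooth muscle forms the muscular wall of the colon, the thin muscularis mucosae under the crypts and the walls of blood vessels. It contracts when calcium activates myosin light chain kinase, which phosphorylates the regulatory light chain of myosin so that smooth muscle myosin pulls on actin filaments anchored at dense bodies. Serum response factor (SRF), with its partner myocardin, switches on many of these genes through a promoter element called the CArG box. Acta2, Tagln and Myl9 are also made by myofibroblasts and pericytes, and Des is made by striated muscle as well.

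Promoter sequences are shown for the Acta2 and Myl9 genes, which held a full or near match to the CArG box as defined below. Smtn is shown too, since its pattern across samples differed from the others. Each runs 5′ to 3′ from 250 bases before to 50 bases after a RefSeq start site on GRCm38.p6. Letters are in lower case, with full and near matches in capitals. The windows are chr19:34255324-34255623 on the minus strand for Acta2, chr2:156775214-156775513 on the plus strand for Myl9 and chr11:3539243-3539542 on the minus strand for Smtn. All of the Smtn window lies inside the gene as listed below, which begins at 3540612. The sequence before that beginning was not searched. Acta2 and Myl9 as listed begin at 34255590 and 156775420, inside their windows and before the start sites used. Positions are counted from the start sites used.
Acta2: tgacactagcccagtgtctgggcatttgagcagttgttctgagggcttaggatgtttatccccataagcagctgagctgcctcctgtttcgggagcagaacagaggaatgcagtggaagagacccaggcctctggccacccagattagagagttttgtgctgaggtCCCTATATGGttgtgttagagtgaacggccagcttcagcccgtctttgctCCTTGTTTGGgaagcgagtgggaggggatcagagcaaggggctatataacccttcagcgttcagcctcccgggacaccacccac
Myl9: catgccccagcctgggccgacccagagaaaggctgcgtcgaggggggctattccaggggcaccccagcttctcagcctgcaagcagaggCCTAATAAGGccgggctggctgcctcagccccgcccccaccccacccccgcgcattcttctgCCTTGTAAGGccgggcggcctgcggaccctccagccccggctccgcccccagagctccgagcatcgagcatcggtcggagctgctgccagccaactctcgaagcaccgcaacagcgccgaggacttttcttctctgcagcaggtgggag
Smtn: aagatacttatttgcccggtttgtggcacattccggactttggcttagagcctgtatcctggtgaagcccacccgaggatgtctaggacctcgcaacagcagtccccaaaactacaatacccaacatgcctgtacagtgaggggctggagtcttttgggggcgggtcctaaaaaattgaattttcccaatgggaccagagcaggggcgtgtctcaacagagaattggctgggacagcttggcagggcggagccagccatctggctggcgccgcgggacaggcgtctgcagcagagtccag
The search took a CArG box as 10 bases with CC, then 6 bases of A or T, then GG, and a near match as one in which 5 of those 6 bases were A or T. The element reads alike on both strands, so 1 search covers both. No other motif was searched. Myl9 held the full element CCTAATAAGG from -161 to -152 of the start site, and the near match CCTTGTAAGG from -99 to -90. Acta2 held 2 near matches, CCCTATATGG from -84 to -75 and CCTTGTTTGG from -34 to -25. The full element was present in 1.64% of 32544 distinct promoter windows of the same length, a full or near match in 9.96%, and at least 2 matches in 0.811%. Of the 10 genes, 7 had a window in the RefSeq table, and these letters were not found in the windows of Des, Cnn1, Lmod1, Synpo2 and Smtn. Actg2, Myh11 and Tagln had no window.

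Expression values are the authors' log2(TPM + 1), where TPM is a gene's transcript abundance per length, relative to all transcripts of its sample. TPM keeps no sequencing depth, so no counting interval is given. The labels name a total RNA library kit and the study's methods an mRNA kit, and which was used was not settled here. Protein-coding genes took from 5.70% to 6.73% of the TPM total in Control and from 8.75% to 9.72% in SIGLEC12 (two-sided exact permutation p = 0.1, the smallest that 2 against 3 samples allow). The median log2 fold change of the 10338 genes tested was accordingly 0.38 as deposited, and 0.01 after each sample was rescaled to a common protein-coding total. Both scales are therefore given, and a difference as deposited is to be read against 0.38. Columnar epithelial markers, all of which were measured, were lowest in Control replicate 1 in 10 of 10 genes on both scales. Over all tested genes that sample was lowest in 70.8% as deposited and 35.8% after rescaling. Of 8 squamous epithelial markers, which a colon tumor would not be labelled for, 6 were highest there as deposited and 7 after rescaling. Among all tested genes the shares highest there were 5.58% and 20.8%. Squamous Krt13 lay at 7.05 or above in all 5 samples. Others of that list lay lower: Trp63 fell to 2.20 in SIGLEC12 replicate 4. Krt4 went the other way and was lowest in Control replicate 1, at 4.30.

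The contractile genes were high in SIGLEC12 replicate 2, and no difference between the groups passed the test. Replicate 2 was the highest sample for 9 of the 10 genes, Smtn being the exception, on both scales. Over all tested genes it was the highest in 22.8% as deposited and 15.7% after rescaling. The TPM of the 10 genes summed to 59.4 and 63.3 in Control replicates 1 and 4 and to 137.0, 54.8 and 60.4 in SIGLEC12 replicates 2, 3 and 4. As a share of all protein-coding TPM this was 0.104% and 0.0940% in Control and 0.155%, 0.0626% and 0.0622% in SIGLEC12. In this share both Control samples stood between SIGLEC12 replicate 2 above and SIGLEC12 replicates 3 and 4 below. In bulk tissue, fewer muscle cells and less RNA per muscle cell cannot be told apart.

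**Figure D1:**
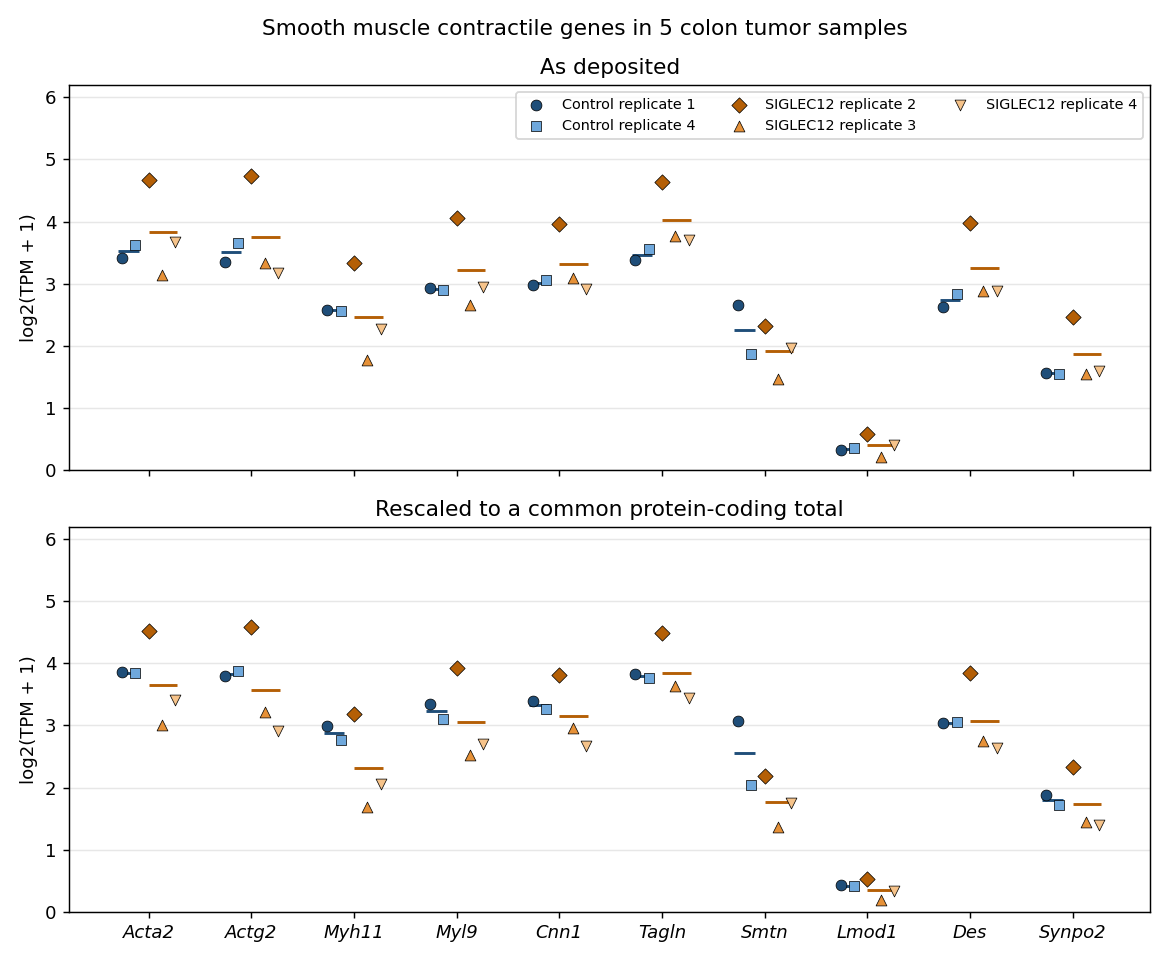
Expression of the 10 smooth muscle contractile genes, as log2(TPM + 1), in each of the 5 samples, as deposited (top) and after rescaling to a common protein-coding total (bottom). Points are single mice and horizontal lines are group means (2 Control, 3 SIGLEC12). SIGLEC12 replicate 2 is the highest point for every gene but Smtn, where Control replicate 1 is highest.

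The thin filament of smooth muscle is built on the actins Acta2, prevalent in vessels, and Actg2, the enteric form. Acta2 (ENSMUSG00000035783, GRCm38 chromosome 19, 34241090 to 34255590, minus strand) was 3.41 and 3.63 in Control and 4.67, 3.14 and 3.68 in SIGLEC12 replicates 2, 3 and 4. Its groups overlapped, and its log2 fold change was 0.31 (± 0.44 SE, adjusted p = 0.604 by limma) as deposited and -0.20 (± 0.45 SE, adjusted p = 0.850 by limma) after rescaling. Actg2 (ENSMUSG00000059430, chromosome 6, 83512905 to 83536265, minus strand) was 3.36 and 3.65 in Control and 4.74, 3.34 and 3.17 in SIGLEC12. The group means differed, on the log2 scale, by 0.25 (± 0.48 SE, adjusted p = 0.708 by limma), and -0.26 (± 0.50 SE, adjusted p = 0.826 by limma) after rescaling. Replicate 2 was the only SIGLEC12 sample above both Control samples for Actg2, and the Acta2 level of SIGLEC12 replicate 4 exceeded the higher Control sample by less than the gap between the Control samples. Coding sequences of actins are close, but only 1.5% of the 31-base words of the listed Acta2 transcript and 1.46% of those of Actg2 occurred in a transcript of another gene, so reads of both could largely be told apart from those of other actins.

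Myosin supplies the motor. Myh11, the smooth muscle heavy chain (ENSMUSG00000018830, chromosome 16, 14194535 to 14291372, minus strand), was 2.58 and 2.56 in Control and 3.33, 1.78 and 2.27 in SIGLEC12. SIGLEC12 samples lay on both sides of the tightly placed Control samples. The log2 fold change was -0.11 (± 0.43 SE, adjusted p = 0.855 by limma), and -0.57 (± 0.45 SE, adjusted p = 0.586 by limma) after rescaling. Myl9, the regulatory light chain (ENSMUSG00000067818, chromosome 2, 156775420 to 156781658, plus strand), was 2.93 and 2.90 in Control and 4.06, 2.65 and 2.94 in SIGLEC12. Between groups the log2 difference was 0.30 (± 0.42 SE, adjusted p = 0.588 by limma), and -0.18 (± 0.43 SE, adjusted p = 0.860 by limma) after rescaling. The 4 samples other than replicate 2 spanned 0.30 on the log2 scale.

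Calponin, transgelin, smoothelin and leiomodin bind the actin filament. Cnn1, or calponin (ENSMUSG00000001349, chromosome 9, 22099216 to 22109630, plus strand), was 2.97 and 3.05 in Control and 3.95, 3.09 and 2.91 in SIGLEC12, so 4 of the 5 samples lay within 0.18 of each other. SIGLEC12 minus Control came to 0.30 (± 0.33 SE, adjusted p = 0.504 by limma), and -0.19 (± 0.35 SE, adjusted p = 0.821 by limma) after rescaling. Tagln, or SM22 (ENSMUSG00000032085, chromosome 9, 45929619 to 45936058, minus strand), was 3.38 and 3.55 in Control and 4.63, 3.76 and 3.70 in SIGLEC12. It was higher in all 3 SIGLEC12 samples than in both Control samples as deposited, with a log2 fold change of 0.57 (± 0.33 SE, adjusted p = 0.240 by limma). After rescaling its groups overlapped and the log2 fold change was 0.05 (± 0.34 SE, adjusted p = 0.950 by limma). Of the 31-base words of the Tagln transcript 53.8% also occurred in transcripts of other genes, mostly in Gm48529, an antisense RNA across it, which was listed between 0.33 and 0.85. How the authors' counting used strand is not stated, so part of the Tagln level is uncertain.

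Smtn, or smoothelin (ENSMUSG00000020439, chromosome 11, 3517523 to 3540612, minus strand), was 2.65 and 1.86 in Control and 2.31, 1.45 and 1.96 in SIGLEC12. Control replicate 1 was the highest sample here, and the Control samples differed by more than the group means did. The log2 fold change was -0.35 (± 0.33 SE, adjusted p = 0.446 by limma), and -0.78 (± 0.37 SE, adjusted p = 0.466 by limma) after rescaling. Without Control replicate 1 it was 0.05 as deposited. Lmod1, or leiomodin (ENSMUSG00000048096, chromosome 1, 135324807 to 135368065, plus strand), nucleates actin filaments. It was 0.32 and 0.36 in Control and 0.58, 0.21 and 0.40 in SIGLEC12, under a TPM of 1 in every sample, and did not enter the test.

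Des and Synpo2 belong to the anchoring apparatus. Desmin, the intermediate filament protein of muscle encoded by Des (ENSMUSG00000026208, chromosome 1, 75360329 to 75368579, plus strand), was 2.62 and 2.84 in Control and 3.98, 2.87 and 2.88 in SIGLEC12. All 3 SIGLEC12 samples lay above both Control samples as deposited, replicates 3 and 4 by less than the gap between the Control samples. The log2 fold change was 0.51 (± 0.37 SE, adjusted p = 0.326 by limma), and 0.03 (± 0.38 SE, adjusted p = 0.973 by limma) after rescaling, where the groups overlapped. Of the 31-base words of Des, 6.6% occurred in another gene, mostly the antisense Gm15179, which was listed between 0 and 0.04. Synpo2, or synaptopodin 2, an actin-binding protein of dense bodies (ENSMUSG00000050315, chromosome 3, 123076519 to 123236149, minus strand), was 1.55 in both Control samples and 2.46, 1.54 and 1.59 in SIGLEC12. The 4 samples other than replicate 2 spanned 0.05 on the log2 scale. The log2 fold change was 0.31 (± 0.30 SE, adjusted p = 0.451 by limma), and -0.07 (± 0.31 SE, adjusted p = 0.925 by limma) after rescaling.

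By mean TPM over the 5 samples, which is a level per length, the order was Tagln at 13.7, Acta2 at 13.01, Actg2 at 12.7, Cnn1 at 8.54, Myl9 at 8.14, Des at 7.75, Myh11 at 5.04, Smtn at 3.31, Synpo2 at 2.45 and Lmod1 at 0.298. Tagln exceeded Acta2 in 2 of 5 samples and Acta2 exceeded Actg2 in 2 of 5, so the order of these 3 did not hold from sample to sample. Cnn1 exceeded Myl9 in 3 of 5 and Smtn exceeded Synpo2 in 3 of 5. Actg2 exceeded Cnn1, Des exceeded Myh11 and Synpo2 exceeded Lmod1 in 5 of 5.

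Across the comparison of SIGLEC12 with Control, 0 of the 9 tested contractile genes passed a limma adjusted p under 0.05, against 0% of the 10338 genes tested (limma with Benjamini-Hochberg adjustment). At an unadjusted p under 0.05 there were also 0 of 9, against 34.3% of all genes as deposited and 10.8% after rescaling. Groups did not overlap for 2 of 9, Tagln and Des, both higher as deposited, where 54.1% of all genes were higher and 1.67% lower without overlap. After rescaling 0 of 9 had groups that did not overlap, against 15.6% of all genes higher and 16.8% lower. The log2 fold change was positive for 7 of 9 as deposited, with a median of 0.30, against 87.2% of all genes. After rescaling it was positive for 2 of 9, with a median of -0.19, against 51.1% of all genes. The 95% interval of each change was wide: for Myh11, from -1.15 to 0.93 as deposited, and for Synpo2, the narrowest, from -0.41 to 1.02.

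SIGLEC12 replicate 2 decided the sign of several of these changes. It stood above the mean of the other 4 samples by a median of 1.03 over the 9 tested genes, from 0.33 for Smtn to 1.36 for Actg2, while the median over all tested genes was 0.19. After rescaling the median was 0.82 for the contractile genes and 0.03 for all genes. Without replicate 2, the log2 fold change was positive for 3 of 9 genes as deposited and 0 of 9 after rescaling, where the median was -0.62 and the median of all genes -0.01. Since this leaves out the sample already seen to be the highest, it is a description with no test. Leaving out SIGLEC12 replicate 3 or 4 instead moved the rescaled median the other way, to 0.07 and 0.05, with 5 of 9 positive each time. Without Control replicate 1 or 4 it was -0.12 and -0.22, with 3 and 2 of 9 positive.

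**Figure D2:**
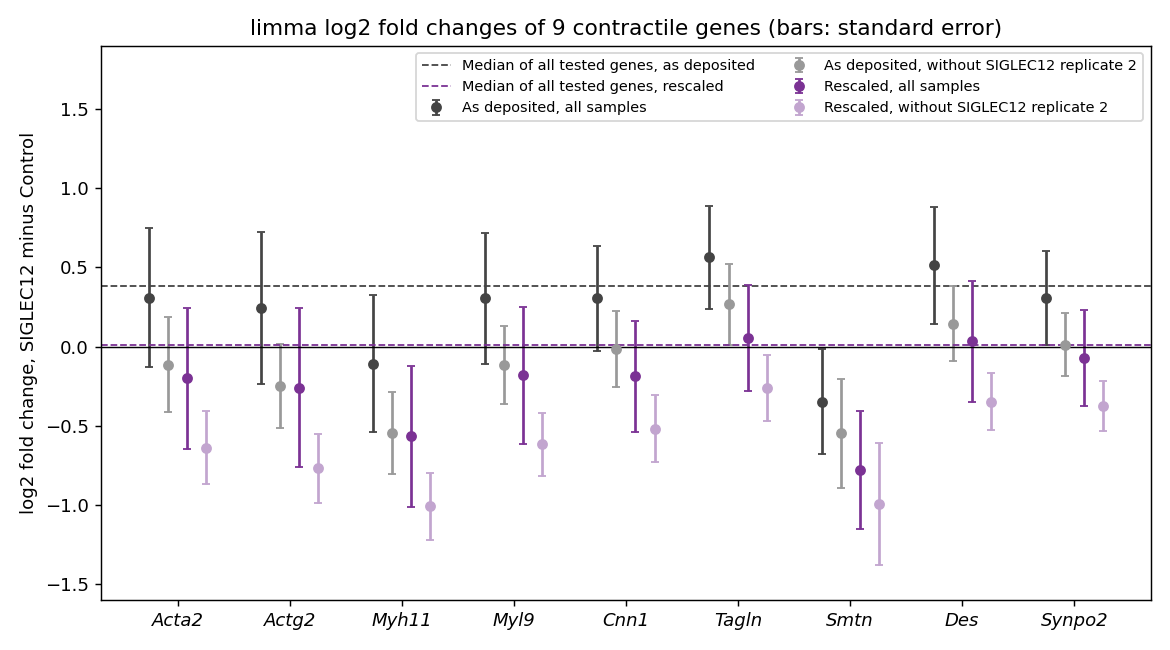
limma log2 fold changes (SIGLEC12 minus Control) of the 9 contractile genes tested, with standard errors, as deposited and after rescaling, each with all 5 samples and without SIGLEC12 replicate 2. Dashed lines are medians of all 10338 tested genes, 0.38 as deposited and 0.01 after rescaling, and without replicate 2 all 9 rescaled values lie below 0.

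Ratios within a sample are nearly free of how TPM was scaled, so 7 of the contractile genes were set against non-muscle relatives, which other cells use. Lmod1, Synpo2 and Smtn had no such ratio. The log2 ratio of Acta2 plus Actg2 to the cytoplasmic actins Actb plus Actg1 was -4.40 and -4.64 in Control and -3.92, -5.23 and -5.85 in SIGLEC12. Its difference was -0.48 (two-sided exact permutation p = 0.6), and -1.02 without SIGLEC12 replicate 2 but -0.055 without SIGLEC12 replicate 4. The log2 ratio of Myh11 to the non-muscle heavy chains Myh9 plus Myh10 was -2.11 and -2.75 in Control and -2.05, -3.42 and -3.75 in SIGLEC12, with -0.64 between the group means (exact permutation p = 0.5). For both filaments SIGLEC12 replicate 2 was highest, Control was next, and SIGLEC12 replicates 3 and 4 were lowest. The log2 ratio of Myl9 to the light chains Myl12a plus Myl12b had the same order: the Control values were -2.38 and -3.15, and the SIGLEC12 values -1.86, -3.83 and -3.62 (difference -0.34, exact permutation p = 0.7). That of Tagln to Tagln2 was -1.49 and -1.30 in Control and -0.60, -1.16 and -2.19 in SIGLEC12 (difference 0.07, exact permutation p = 0.9). That of Cnn1 to Cnn2 plus Cnn3 was 0.41 and 0.03 in Control and 0.77, -0.61 and 0.35 in SIGLEC12 (difference -0.05, exact permutation p = 0.9). The groups overlapped in these 5 ratios. Of the 31-base words of Actb and Actg1 transcripts, 23.6% and 40.2% occurred in other genes, so the levels of those actins are less certain.

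Des against Vim, the intermediate filament gene of fibroblasts and other mesenchymal cells, was the ratio whose groups did not overlap. The log2 ratio was 1.58 and 0.72 in Control and 0.17, -0.29 and 0.09 in SIGLEC12, a difference of -1.16 (exact permutation p = 0.1, again the least possible). Adjusted over the 7 ratios compared, its p was 0.7, and without Control replicate 1 the difference was -0.73. Replicate 2 did not stand apart here, and the Control samples differed from each other by less than the group means did. Vim itself was 1.41 and 2.23 in Control and 3.82, 3.13 and 2.79 in SIGLEC12, with a difference on the log2 scale of 1.43 (± 0.37 SE, adjusted p = 0.0974 by limma), and 1.002 (± 0.38 SE, adjusted p = 0.457 by limma) after rescaling. The enteric to vascular actin ratio, Actg2 to Acta2, stayed between -0.06 and 0.22 in 4 samples and was -0.55 in SIGLEC12 replicate 4 (difference -0.07, exact permutation p = 1).

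**Figure D3:**
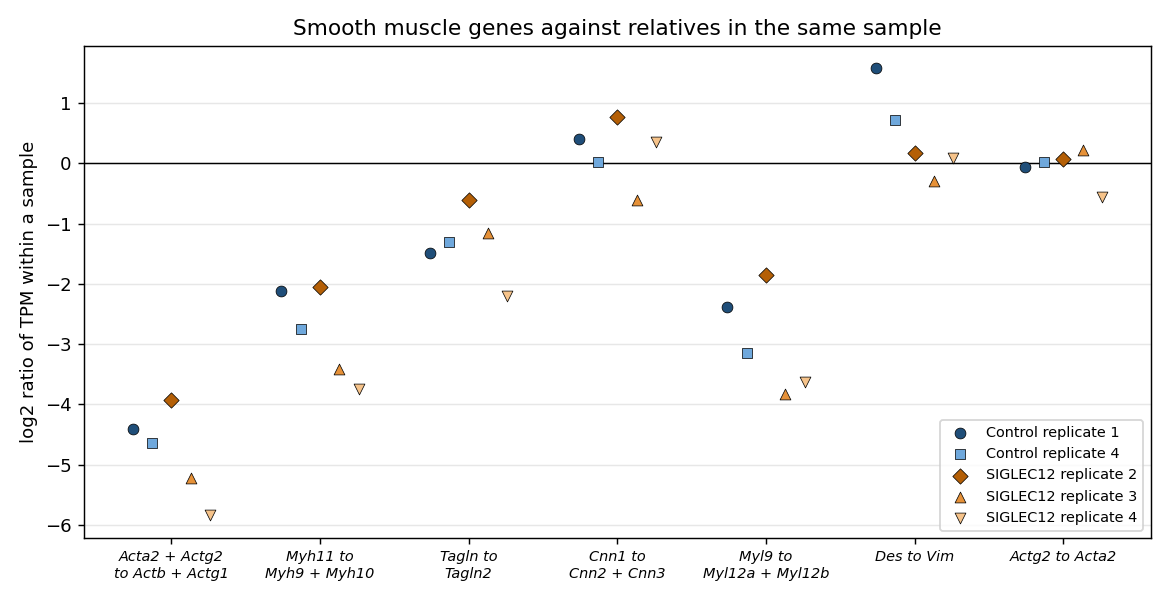
log2 ratios of TPM of smooth muscle genes to their non-muscle relatives within each sample, and of Actg2 to Acta2. Points are single mice. In the actin, myosin heavy chain and light chain ratios SIGLEC12 replicate 2 is the highest and SIGLEC12 replicates 3 and 4 are the lowest, and Des to Vim is lower in all 3 SIGLEC12 samples than in both Control samples.

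Of 18 further filament and dense body genes, 16 were tested and 0 passed the adjusted threshold. At an unadjusted p under 0.05, 4 were higher and 0 lower as deposited, and after rescaling 0 and 0, against 33.4% of all genes higher and 0.909% lower as deposited and 4.45% higher and 6.31% lower after rescaling. Their median log2 fold change was 0.41 as deposited and -0.05 after rescaling. SIGLEC12 replicate 2 was the highest sample for 11 of the 16 as deposited and 9 after rescaling, against 22.8% and 15.7% of all genes. The tropomyosin gene Tpm1 had the highest log2 fold change of the list, 1.08 (± 0.28 SE, adjusted p = 0.0974 by limma), and 0.55 after rescaling. It was 4.26 and 4.98 in Control and 5.85, 5.70 and 5.57 in SIGLEC12, without overlap. Pdlim7, of a family that binds actin filaments, had a log2 fold change of 0.78 (± 0.18 SE, adjusted p = 0.0974 by limma), and 0.32 after rescaling. At the other end were Vcl (vinculin) at 0.05 and Synm (synemin) at 0.11.

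Mylk, the myosin light chain kinase, was 2.52 and 2.91 in Control and 3.56, 2.78 and 2.91 in SIGLEC12, so it too was highest in replicate 2 (log2 fold change 0.37 ± 0.29 SE, adjusted p = 0.358 by limma). Cald1, which encodes caldesmon, was 1.81 and 1.902 in Control and 2.80, 2.13 and 2.24 in SIGLEC12 (0.54 ± 0.24 SE, adjusted p = 0.161 by limma). Tpm2 was 3.48 and 3.14 in Control and 3.92, 3.57 and 3.004 in SIGLEC12 (0.19 ± 0.31 SE, adjusted p = 0.644 by limma). After rescaling the log2 fold changes of Mylk, Cald1 and Tpm2 were -0.11, 0.11 and -0.31.

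Of 24 genes that regulate contraction, 13 were tested, 0 passed the adjusted threshold, and 3 were higher and 0 lower at an unadjusted p under 0.05 as deposited. After rescaling it was 0 and 0. Of all genes, 33.4% were higher and 0.909% lower as deposited, and 4.45% and 6.31% after rescaling. Ppp1cb, the catalytic subunit of myosin phosphatase, had a log2 fold change of 0.63 (± 0.22 SE, adjusted p = 0.116 by limma), and 0.10 after rescaling. Ppp1r12b, a regulatory subunit of that phosphatase, was at 0.02 and the small heat shock protein gene Hspb1 at -0.82. Hspb1 was 6.72 in Control replicate 1 and between 4.33 and 5.19 in the other 4 samples, and without Control replicate 1 its log2 fold change was 0.34. Of the genes of this list, 10 stayed under 1 on the log2 scale in all 5 samples.

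Of 16 transcription factor symbols 14 were in the table, Mkl1 and Mkl2 under these older names, and 5 were tested. Of these 5, 0 passed the adjusted threshold, and at an unadjusted p under 0.05 there was 1 higher as deposited and 2 lower after rescaling. All genes gave 33.4% higher as deposited and 6.31% lower after rescaling. Srf was 1.57 and 1.81 in Control and 2.10, 1.68 and 2.15 in SIGLEC12, with a difference on the log2 scale of 0.29 (± 0.20 SE, adjusted p = 0.321 by limma), and -0.11 after rescaling. Myocd, which encodes myocardin, lay between 0.13 and 0.41 and was not tested. Gata6 had a log2 fold change of 0.77 (± 0.29 SE, adjusted p = 0.125 by limma), Mkl2 of 0.05 and Klf4, which opposes the smooth muscle programme, of -0.30 as deposited, and after rescaling 0.42, -0.37 and -0.84. Klf4 lay between 4.05 and 4.94, far above Myocd, and which cells of the bulk tissue these factors came from was not tested. Of 10 non-muscle relatives 9 were tested, 0 passed the adjusted threshold and 3 were higher at an unadjusted p under 0.05 as deposited (1 after rescaling). The shares of all genes that were higher were 33.4% as deposited and 4.45% after rescaling. Vim and Actb had the highest log2 fold changes, Actb 0.87 (± 0.35 SE, adjusted p = 0.140 by limma), and Myh9 and Cnn2 the lowest, 0.46 and -0.02.

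Apart from the 10 genes themselves, 5 of 2720 protein-coding genes of mean TPM 5 or more were nearest to the mean profile of the 9 contractile genes over the 5 samples, by the root mean square difference of centred log2 values. Vdr, the vitamin D receptor, differed by 0.16, Mylk and Tsc22d4 by 0.19 and 0.20, and Trp53inp2 and Gstm1 by 0.20 each, where the median of the candidates was 0.51. Vdr was 2.46 and 2.96 in Control and 3.52, 2.43 and 2.62 in SIGLEC12. Of the contractile genes, Myl9 differed from that mean by 0.09 and Synpo2 by 0.09, both of which are part of it, and Smtn by 0.43, more than 609 of the candidates did.

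Markers of other cell types moved with replicate 2 to differing extents. Of 10 fibroblast markers, 9 were highest in SIGLEC12 replicate 2, and their TPM summed to 77.3 there and to between 11.9 and 34.2 in the other samples. All 7 endothelial markers were highest in replicate 2, with a sum of 5.39 against 1.11 to 3.12, and 5 of the 7 stayed under 1 on the log2 scale everywhere. Of 7 mural cell markers, 4 were highest in replicate 2, which summed to 6.44 against 2.57 to 4.87. The pericyte marker Rgs5 was at 1.56 in replicate 2 and between 0.29 and 0.84 elsewhere. Notch3 and Cspg4 of the same list were instead highest in Control replicate 1, at 2.10 and 0.80, against 1.11 and 0.38 in replicate 2. Abcc9 was highest in SIGLEC12 replicate 4. Of 10 columnar epithelial markers, 0 were highest in replicate 2. In the group comparison 0 markers of any of these lists passed the adjusted threshold. At an unadjusted p under 0.05, 3 of 8 tested fibroblast markers were higher as deposited and 2 after rescaling, with median log2 fold changes of 0.88 and 0.62. Of 10 columnar markers 6 were higher as deposited and 1 after rescaling, with medians of 1.31 and 0.77. Of 8 squamous markers 1 was lower as deposited and 3 after rescaling, with medians of -1.01 and -1.505. Of 7 mural markers 1 was tested, Notch3, with log2 fold changes of -0.72 as deposited and -1.05 after rescaling. It was lower at an unadjusted p under 0.05 after rescaling only. Over all genes 33.4% were higher and 0.909% lower as deposited, and 4.45% and 6.31% after rescaling. Of 7 immune markers 3 were tested, 0 of them past either threshold. The part of these cell types in the contractile gene levels was not tested.

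Striated muscle, which shares Des, had another pattern in its summed TPM. Its 15 markers summed to a TPM of 1.31 in Control replicate 1, 28.0 in Control replicate 4, and 44.2, 91.5 and 23.2 in SIGLEC12 replicates 2, 3 and 4. By single marker, 8 of the 15 were highest in SIGLEC12 replicate 3, 5 in SIGLEC12 replicate 2, and 2 in SIGLEC12 replicate 4. Ckm, the muscle creatine kinase, ran from 0.41 in Control replicate 1 to 4.49 in SIGLEC12 replicate 3. Acta1, the skeletal actin, ran from 0.29 to 4.72 in the same samples. Mb, of the same list, was instead highest in SIGLEC12 replicate 2, at 2.68. Of the 15, 9 were tested, with a median log2 fold change of 1.24 as deposited and 1.01 after rescaling. At an unadjusted p under 0.05, 3 of 9 were higher as deposited, near the 33.4% of all genes, and 1 after rescaling. Acta1 had a log2 fold change of 2.33 (± 0.80 SE, adjusted p = 0.112 by limma). Des was 2.62 in Control replicate 1, its lowest sample as deposited, and 2.87 in SIGLEC12 replicate 3. After rescaling its lowest sample was SIGLEC12 replicate 4. Actc1, the cardiac actin, stayed at or below 0.05. The part of striated muscle in the level of Des was not tested. Markers of the interstitial cells of Cajal, neurons and glia gave 1 tested gene of 11, Ano1, between 3.70 and 4.87. Kit and Etv1, listed for the same cells of Cajal, lay far lower, between 0.62 and 1.37 and between 0.21 and 0.59. The cell source of Ano1 was not tested. The glial Sox10 and Gfap stayed at or below 0.04.

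**Figure D4:**
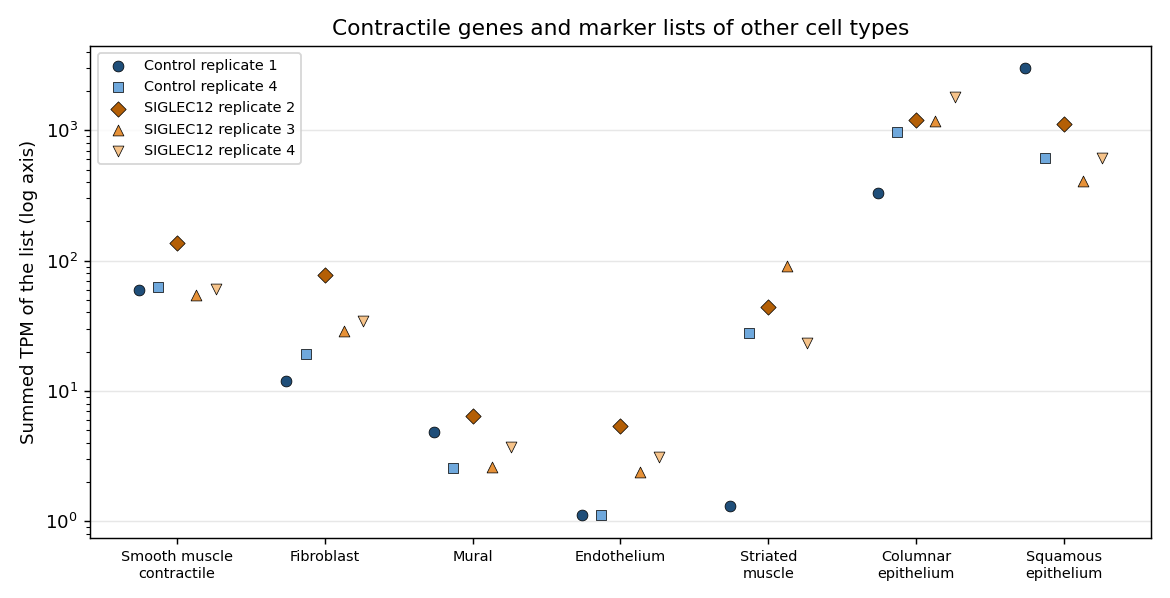
Summed TPM (log axis) of the smooth muscle contractile genes and of marker lists of other cell types in each sample. Fibroblast, mural and endothelial sums share their highest sample, SIGLEC12 replicate 2, with the contractile genes. Striated muscle is highest in SIGLEC12 replicate 3 and lowest in Control replicate 1, at 1.31.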

How the data were processed

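RNA-Seq was analysed from colon tumors of 2 Control and 3 SIGLEC12 mice, grouped by their labels. The design text counts 3 mice in each condition, but the table of values holds just 2 Control samples. Deposited was 1 table of log2(TPM + 1) values per gene, made by the authors. The submitters' processing notes name kallisto 0.45.0 and GRCm38. The labels name a stranded total RNA kit, the study's methods a stranded mRNA kit. The methods also name a human reference and technical replicate libraries, and how the libraries were combined is not stated. Of the identifiers, 98.45% were in GENCODE M21 (GRCm38), which gave coordinates, biotypes and transcripts. The columns not mapped to a sample numbered 0.

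The 10 genes and all lists were chosen with earlier results of these data known. Genes with a TPM of at least 1 in at least 2 samples (10338) were fitted with limma 3.58.1 in R 4.3.3 (lmFit, eBayes with trend, no covariate), with Benjamini-Hochberg adjustment over all of them. TPM has no counts, so no count model was used. The pseudocount of 1 understates changes of low genes. Rescaling multiplied TPM so that protein-coding genes summed alike in each sample. Ratios used a pseudocount of 0.1 TPM and an exact permutation test over 10 splits. The 10 genes and the 5 nearest to them in profile were named. From the filament, regulator, transcription factor and non-muscle lists the 2 highest and 2 lowest log2 fold changes were named (1 gene is not reported here), plus Srf, Myocd, Mylk, Tpm2, Cald1 and genes of the ratios. The same rule was set for the cell type marker lists, but these are given by counts and sums, and the single markers named, and genes beside shared sequence, were chosen after their values were seen. The fit was tested on simulated data. Alternatives were other scalings, pseudocounts and filters, and leaving out each sample.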

Additional observations from a re-analysis of the deposited data

How the results depend on the processing

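No contractile gene passed the adjusted threshold under any alternative tried, a count of 0 each time (limma). With a pseudocount of 0.1, without a filter (10 genes tested) or with TPM of at least 5 (6 tested) their median log2 fold change stayed positive. It was 0.33, 0.30 and 0.31 in turn, on the deposited scale. The medians of all genes tested in these fits were 0.54, 0.018 and 0.60. Scaling turned signs because it moved the median of all genes from 0.38 to between -0.0067 and 0.028. With protein-coding rescaling the turned values were Acta2 -0.20, Actg2 -0.26, Cnn1 -0.19, Myl9 -0.18, Synpo2 -0.072, Vcl -0.43, Synm -0.20, Ppp1r12b -0.27, Mkl2 -0.37, Srf -0.11, Myh9 -0.075, Mylk -0.11 and Tpm2 -0.31. With median-ratio size factors they were Acta2 -0.22, Actg2 -0.28, Cnn1 -0.21, Myl9 -0.20, Synpo2 -0.091, Vcl -0.45, Synm -0.21, Ppp1r12b -0.28, Mkl2 -0.39, Srf -0.13, Myh9 -0.096, Mylk -0.13 and Tpm2 -0.33. With quantile normalization they were Acta2 -0.24, Actg2 -0.28, Tagln -0.0051, Cnn1 -0.19, Myl9 -0.18, Synpo2 -0.025, Vcl -0.42, Synm -0.17, Ppp1r12b -0.26, Mkl2 -0.33, Srf -0.072, Myh9 -0.15, Mylk -0.098 and Tpm2 -0.34.

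Leaving out each sample in turn, on the deposited and rescaled scales, gave log2 fold changes of Acta2 -0.64 to 0.65, Actg2 -0.77 to 0.54, Myh11 -1.01 to 0.23, Tagln -0.26 to 0.73, Des -0.35 to 0.70, Cnn1 -0.52 to 0.51, Myl9 -0.62 to 0.59, Synpo2 -0.37 to 0.47 and Smtn -1.30 to 0.049. The lowest values came without SIGLEC12 replicate 2, and for Smtn without Control replicate 4. As deposited, it gave Vcl -0.087 to 0.21, Synm -0.12 to 0.24, Tpm2 -0.019 to 0.44, Ppp1r12b -0.12 to 0.18, Hspb1 -1.98 to 0.34, Mkl2 -0.075 to 0.17, Cnn2 -0.16 to 0.12. Without a change of sign, it gave Gata6 0.29 to 1.25 (without Control replicates 1 and 4), Actb 0.58 to 1.16 and Myh9 0.16 to 0.76 (the same), Cald1 0.33 to 0.67 and Klf4 -0.49 to -0.048 (without SIGLEC12 replicates 2 and 3), Mylk 0.13 to 0.56 (without SIGLEC12 replicate 2 and Control replicate 4) and Srf 0.17 to 0.44 (without Control replicate 1 and SIGLEC12 replicate 3). The log2 ratios differed by Tagln to Tagln2 -0.28 to 0.51, Cnn1 to Cnn2 plus Cnn3 -0.35 to 0.34, Myl9 to Myl12a plus Myl12b -0.96 to 0.048, Actg2 to Acta2 -0.22 to 0.17. The actin ratio ran from -1.02 to -0.055 and the myosin heavy chain ratio from -1.15 to -0.30 (without SIGLEC12 replicates 2 and 4), and Des to Vim from -1.59 to -0.73 (without Control replicates 4 and 1). Of the filament, regulator, transcription factor and non-muscle lists together, 0 to 4 genes had an adjusted p under 0.05, and the 4 (Tpm1, Hspb1, Gata6 and Vim) came without Control replicate 4, a fit in which 1 Control sample is assumed to vary like the SIGLEC12 group and 1606 genes passed. No paired analysis was possible because just 1 replicate number, 4, occurs in both groups. With 2 and 3 samples, the least exact permutation p is 0.1, TPM keeps no depth, and low genes such as Lmod1 could not be tested.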
